A study of Mus musculus with 16 samples.

Results

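Kcnma1, Desi1 and Vat1 are 3 of the 19531 genes that the array's annotation names by a single symbol, and 4 of the 25108 probe sets carry exactly 1 of these symbols. They were selected on the difference of their signals between the 2 NOD reporter lines in earlier results of the same arrays. Differences between the reporter lines and between the strains are therefore given as a description, with a standard error (SE) and no test. Spleen cells of 6-week-old males were sorted and their RNA was measured on arrays. CD3+ CD4+ GFP+ cells are the regulatory T cells (Treg), and CD3+ CD4+ GFP- cells the conventional T cells (Tconv). There were 8 groups of 2 arrays each. The NOD fusion and B6 fusion lines carried a Foxp3 allele whose product is joined to GFP (Foxp3-GFP), and the NOD ires and B6 ires lines carried Foxp3-IRES-GFP, in which GFP is made as a separate protein from the same transcript. All the mice carried a reporter, and no unmodified mice were analysed here. Each combination of allele and strain is 1 mouse line, so the reporter allele and any other difference between the lines of a strain cannot be told apart. Nothing in the labels says whether arrays 1 and 2 came from separate mice, from pools or from 1 RNA. The p-values thus rest on a spread that may be only technical.

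Kcnma1 encodes the pore-forming subunit of the BK channel, a potassium channel of large conductance opened by calcium and by depolarisation, which is best known from smooth muscle and neurons. The potassium channels usually described in T cells are encoded by Kcna3 and Kcnn4. Desi1 encodes a deSUMOylating isopeptidase, an enzyme that removes the small protein modifier SUMO from some of its targets. Vat1 encodes a vesicle- and membrane-associated protein related to zinc-type alcohol dehydrogenases and quinone reductases.

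Markers were used to check the sort. Foxp3, the transcription factor that defines Treg, lay at log2 11.37 to 12.16 on the 8 Treg arrays and at 7.01 to 8.18 on the 8 Tconv arrays. Il2ra, Ctla4 and Ikzf2, which also mark Treg, did not overlap between the cell types either, and Cd3e was high in both, at 11.14 to 11.84 in Treg and 11.03 to 11.65 in Tconv. Median intensities ran from 86.7 to 99.0, and within a group the 2 arrays differed with an SD across genes of 0.185 to 0.251 (log2). No marker of CD8, NK or gamma-delta T cells, B cells, myeloid cells, or red cells and platelets was called between the NOD lines. Of those measured, only 3 of 5, 2 of 4, 4 of 8 and 2 of 4 in these classes were high enough to test. Over all tested genes 0.102% were called in NOD Treg and 0.0469% in NOD Tconv, so the absence of calls says little about purity. The mean of the 4 measured B cell markers was 5.58 to 5.83 in NOD fusion Treg and 5.51 to 5.87 in NOD ires Treg, and 5.45 to 6.37 in NOD fusion Tconv against 5.41 to 5.66 in NOD ires Tconv. In sorted bulk cells, fewer cells of a type and less RNA per cell cannot be told apart.

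The largest difference between the NOD lines belonged to probe set 10582545, 1 of the 2 probe sets annotated to Kcnma1. Its log2 intensities were 10.45 and 9.55 in NOD fusion Treg, 3.93 and 4.35 in NOD ires Treg, 4.57 and 4.58 in B6 fusion Treg, and 4.64 and 4.34 in B6 ires Treg. In Tconv they were 10.21 and 10.89 in NOD fusion, 4.17 and 4.33 in NOD ires, 4.36 and 4.47 in B6 fusion, and 4.36 and 3.93 in B6 ires. The 4 NOD fusion arrays, at 9.55 to 10.89, were the only ones above log2 6.06, the 40th percentile of all gene values, which was the limit for testing a gene. The other 12 arrays spanned 3.93 to 4.64, and values that far under the limit were not ranked. The fitted fusion minus ires difference in NOD was 5.86 ± 0.24 (SE, 2 arrays against 2) in Treg and 6.30 ± 0.24 in Tconv, the largest of all 12798 tested genes in either cell type. That rank is on the difference by which the gene was chosen and is no separate result. Because the ires arrays lay under the limit, the NOD fusion mean was also set against the limit itself. By that measure it was at least 15.3-fold higher in Treg and at least 22.4-fold higher in Tconv. In B6 the fitted differences were 0.08 ± 0.24 in Treg and 0.27 ± 0.24 in Tconv, between values that all lay under the limit.

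The other Kcnma1 probe set, 10418053, did not show this pattern. Its values were 4.90 and 4.39 in NOD fusion Treg against 4.78 and 4.54 in NOD ires Treg, and 4.59 and 4.63 in NOD fusion Tconv against 4.79 and 4.52 in NOD ires Tconv. All 16 arrays, B6 included, lay between 4.39 and 4.91 and thus under the limit, and the NOD lines overlapped. Its fusion minus ires difference was -0.01 ± 0.18 in NOD Treg and -0.04 ± 0.18 in NOD Tconv. The 2 probe sets therefore disagree about the gene whose symbol they share.

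**Figure D1:**
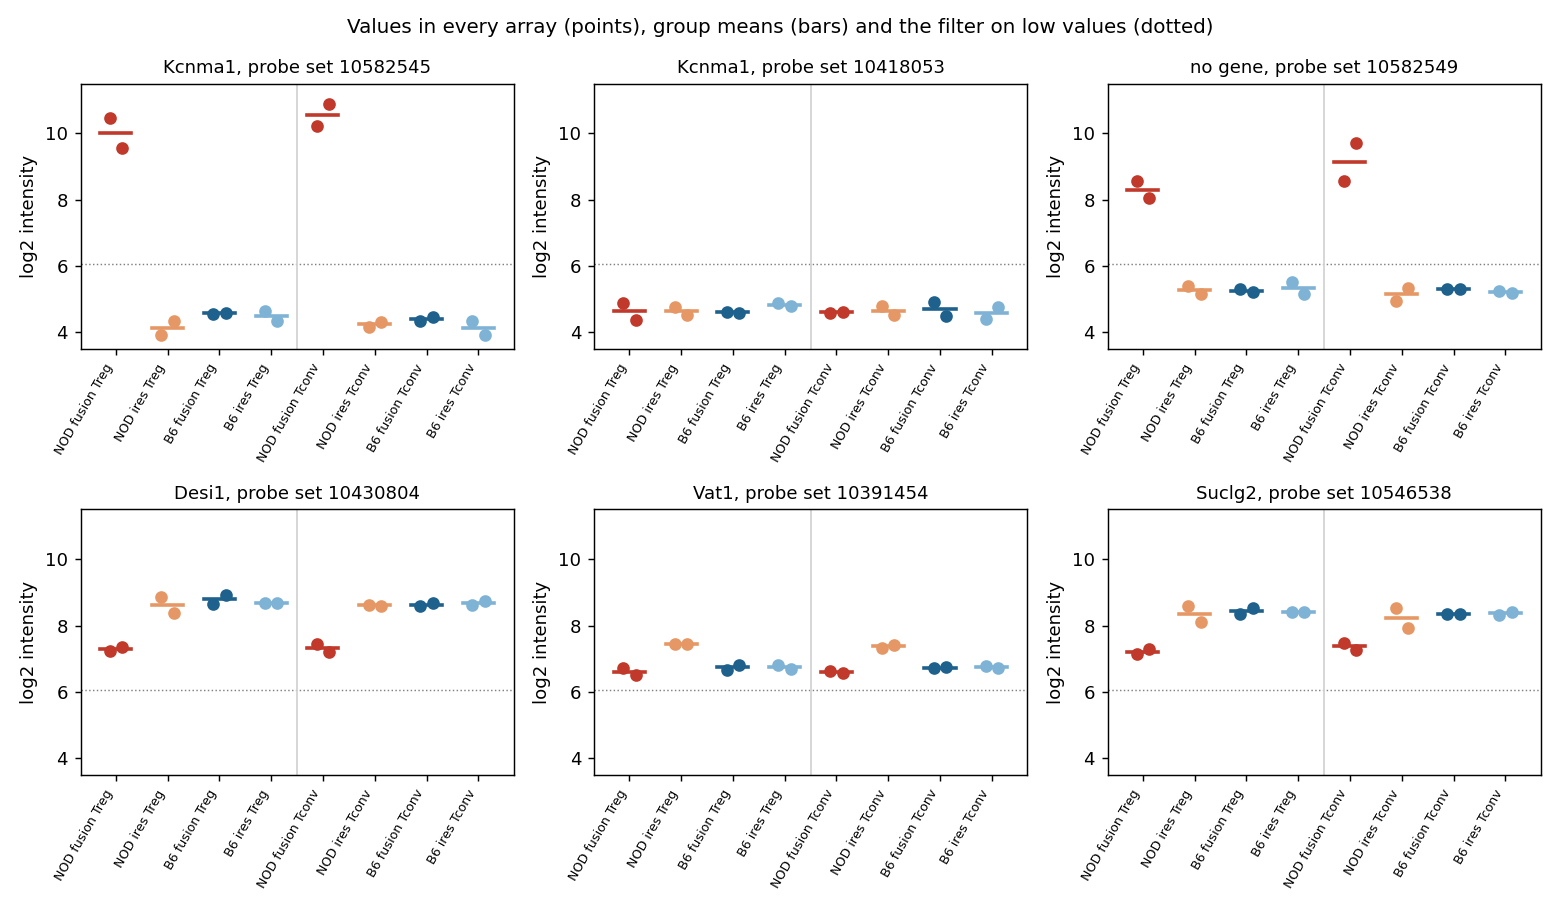
Log2 intensity on all 16 arrays of the 4 probe sets of Kcnma1, Desi1 and Vat1, of probe set 10582549 (no gene) and of Suclg2 probe set 10546538; points are arrays, bars are group means of 2 arrays, and the dotted line marks log2 6.06. NOD fusion arrays stand apart for Kcnma1 probe set 10582545 (9.55 to 10.89) and Desi1 (7.20 to 7.45), while NOD ires arrays stand apart for Vat1 (7.33 to 7.45).

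The annotation of the 2 Kcnma1 probe sets differs in kind. Probe set 10418053 lists 20 transcript accessions, 17 of them RefSeq transcripts. Probe set 10582545 lists 4, none from RefSeq, and the lists share 0 accessions. The numbers of this array's probe sets follow chromosomal order: of 21074 probe sets with 1 symbol and a known chromosome, 20439 (97.0%) had at least 5 of their 10 nearest numbers on the chromosome of their own gene, and 574 (2.72%) had none there. Probe set 10418053 had 10 of its 10 nearest on chromosome 14, where the reference annotation places Kcnma1. Probe set 10582545 had 0 of 10 on chromosome 14 and 10 of 10 on chromosome 8, between Fanca and Dbndd1. The single probe sets of Desi1 and Vat1 had 10 of 10 nearest numbers on chromosomes 15 and 11, the chromosomes of these genes. The next number, 10582549, has no gene in the annotation and correlated with 10582545 at r = 0.989 over the 16 arrays, the highest of 25107 probe sets, with both driven by the same 4 NOD fusion arrays. The deposited table holds no probe sequences, so whether 10582545 measures a Kcnma1 transcript was not tested, and the values above are those of the probe set.

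Desi1 was lower in the NOD fusion line than in every other line, in both cell types. Its log2 intensities were 7.24 and 7.36 in NOD fusion Treg, 8.85 and 8.39 in NOD ires Treg, 8.66 and 8.93 in B6 fusion Treg, and 8.68 and 8.68 in B6 ires Treg. In Tconv they were 7.45 and 7.20 in NOD fusion, 8.61 and 8.60 in NOD ires, 8.59 and 8.67 in B6 fusion, and 8.63 and 8.74 in B6 ires. The 4 NOD fusion arrays (7.20 to 7.45) did not overlap with the other 12 (8.39 to 8.93), and those 12 overlapped with one another. Fusion minus ires was -1.32 ± 0.15 in NOD Treg and -1.28 ± 0.15 in NOD Tconv, a 2.49-fold and a 2.43-fold lower signal in the fusion line. These were the lowest differences of all tested genes, again on the difference by which the gene was chosen. In B6 the differences were 0.12 ± 0.15 in Treg and -0.06 ± 0.15 in Tconv. Against the B6 line with the same allele, the NOD fusion line differed by -1.50 in Treg and -1.31 in Tconv, and the NOD ires line by -0.06 and -0.08 from B6 ires.

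Vat1 had another arrangement: the NOD ires line was high and the NOD fusion line was near the B6 lines. Its log2 intensities were 6.72 and 6.50 in NOD fusion Treg, 7.44 and 7.45 in NOD ires Treg, 6.67 and 6.80 in B6 fusion Treg, and 6.81 and 6.68 in B6 ires Treg. In Tconv they were 6.64 and 6.56 in NOD fusion, 7.33 and 7.41 in NOD ires, 6.71 and 6.74 in B6 fusion, and 6.77 and 6.73 in B6 ires. The 4 NOD ires arrays (7.33 to 7.45) lay above the other 12 (6.50 to 6.81), among which the NOD fusion arrays (6.50 to 6.72) overlapped with the B6 arrays (6.67 to 6.81). Fusion minus ires was -0.84 ± 0.11 in NOD Treg and -0.77 ± 0.11 in NOD Tconv, and -0.01 and -0.03 in B6 Treg and Tconv. The NOD ires line differed from B6 ires by 0.70 in Treg and 0.62 in Tconv, and the NOD fusion line from B6 fusion by -0.13 in each cell type. The lower Vat1 signal of NOD fusion against NOD ires went with a raised NOD ires line, whereas for Desi1 it went with a lowered NOD fusion line.

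**Figure D2:**
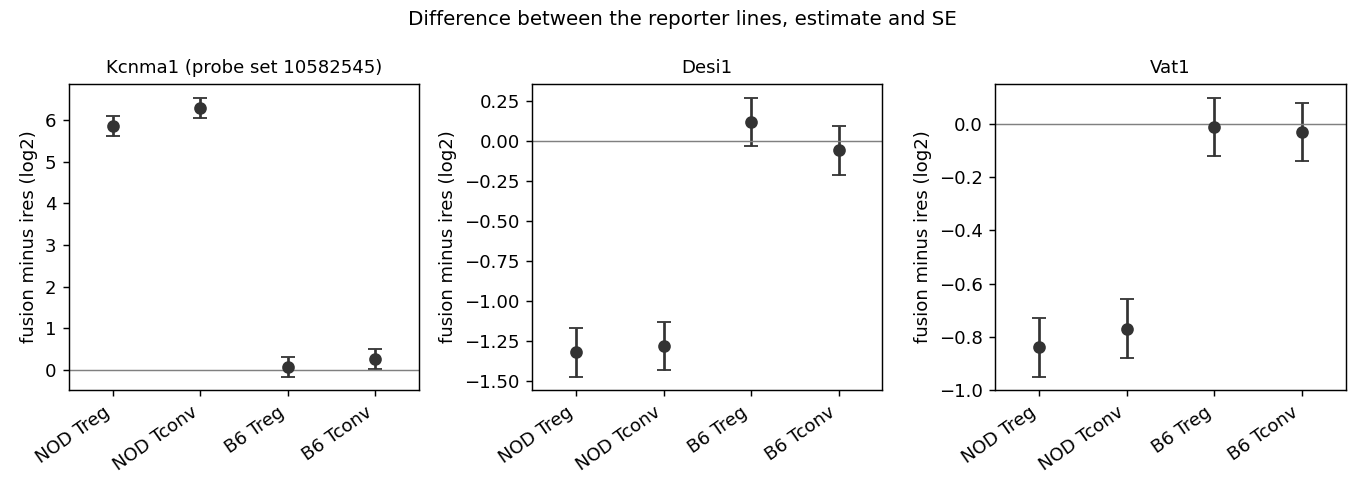
Fusion minus ires difference (log2) of Kcnma1 (probe set 10582545), Desi1 and Vat1 in NOD and B6, in Treg and Tconv; points are the fitted difference and whiskers its SE, and each panel has its own scale. The NOD differences are 5.86 and 6.30 for Kcnma1, -1.32 and -1.28 for Desi1, and -0.84 and -0.77 for Vat1 (Treg and Tconv), while no B6 difference exceeds 0.27.

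Across the 16 arrays, the log2 values of Kcnma1 (10582545) and Desi1 had r = -0.978, those of Kcnma1 and Vat1 r = -0.504, and those of Desi1 and Vat1 r = 0.428. These coefficients describe 16 arrays that fall into separate clusters by line. The allele effect in NOD Treg minus that in NOD Tconv was -0.04 ± 0.21 for Desi1 and -0.07 ± 0.16 for Vat1.

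The promoters of the 3 genes are shown because they give the sequence at the annotated start of each symbol, which for Kcnma1 is not where its high probe set falls by number. They are RefSeq windows on GRCm38.p6, all on the minus strand and 300 bases long, from 250 bases before to 50 after the start, written 5′ to 3′. The Kcnma1 window is chr14:24004156-24004455, that of Desi1 is chr15:82016171-82016470 and that of Vat1 is chr11:101466150-101466449. Capitals mark matches on either strand to a GC box (GGGCGG) or a CCAAT box (CCAAT), and the first 2 GC boxes of Kcnma1 overlap.
Kcnma1: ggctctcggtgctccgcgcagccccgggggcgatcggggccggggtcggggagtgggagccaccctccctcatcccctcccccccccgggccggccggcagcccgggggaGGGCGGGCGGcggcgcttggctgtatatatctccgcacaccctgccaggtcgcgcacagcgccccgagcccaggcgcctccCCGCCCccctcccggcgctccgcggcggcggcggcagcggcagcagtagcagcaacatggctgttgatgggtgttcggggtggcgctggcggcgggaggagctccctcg
Desi1: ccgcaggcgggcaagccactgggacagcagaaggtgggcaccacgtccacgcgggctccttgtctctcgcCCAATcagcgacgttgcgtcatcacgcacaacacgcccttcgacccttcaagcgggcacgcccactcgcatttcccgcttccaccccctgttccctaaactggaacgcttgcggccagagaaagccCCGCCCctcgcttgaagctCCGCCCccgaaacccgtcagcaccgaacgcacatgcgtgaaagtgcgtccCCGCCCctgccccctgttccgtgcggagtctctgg
Vat1: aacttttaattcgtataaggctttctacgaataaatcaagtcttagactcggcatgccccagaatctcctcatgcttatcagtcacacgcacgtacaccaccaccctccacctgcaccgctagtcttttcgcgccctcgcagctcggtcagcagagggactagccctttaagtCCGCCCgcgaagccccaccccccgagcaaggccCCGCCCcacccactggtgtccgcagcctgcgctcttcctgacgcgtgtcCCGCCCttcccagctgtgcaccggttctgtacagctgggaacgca
Each window held 3 GC boxes, and that of Desi1 also 1 CCAAT box. Of 32851 promoter windows, 35.7% held a GC box and 37.4% a CCAAT box. No match to the forkhead core TGTTTAC (in 3.65% of windows) or to TATAAA (in 13.6%) was present in these 3. All were rich in CpG, with 36 in Kcnma1, 30 in Desi1 and 22 in Vat1 against a median of 7 over all windows.

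Whether the members differed between Treg and Tconv was not used to choose them and was tested over the 4 lines with limma, adjusted by the Benjamini-Hochberg method over 12798 genes. Of all tested genes, 28.6% were called at an adjusted p under 0.05, and neither Desi1 nor Vat1 was, also at an unadjusted p under 0.05. Treg minus Tconv was 0.04 ± 0.07 for Desi1 (adjusted p = 0.763, 95% interval -0.11 to 0.19) and 0.02 ± 0.06 for Vat1 (adjusted p = 0.833, -0.10 to 0.14). Within the NOD lines, where 18.4% of genes were called, the adjusted p-values were 0.988 for Desi1 and 0.802 for Vat1 (limma). Within the B6 lines, where 20.8% were called, they were 0.665 for Desi1 and 0.996 for Vat1. The test of the Treg minus Tconv difference between NOD and B6 lines, which called 0.82% of genes, gave -0.08 ± 0.15 for Desi1 (adjusted p = 0.925) and 0.04 ± 0.11 for Vat1 (adjusted p = 0.955). Probe set 10582545 of Kcnma1 entered the tests only through the 4 NOD fusion arrays, the other 12 being under the limit, so no test of its Treg against Tconv levels is given. In the NOD fusion line its Treg minus Tconv difference was -0.55 ± 0.24, and the arrays of the 2 cell types overlapped.

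The genes nearest to the members on their chromosomes were examined next. The 15 nearest tested genes on each side of each member were compared between the NOD lines, which called 0.102% of all genes in Treg and 0.0469% in Tconv by limma. None of the 30 neighbours of Kcnma1, of Desi1 or of Vat1 was called in either cell type. At an unadjusted p under 0.05 there were 1 around Kcnma1, 1 around Desi1 and 2 around Vat1 in Treg and 0 around each in Tconv, where 4.81% and 3.07% of all genes passed. In Treg the differences of the neighbours ran from -0.32 (Dennd6a) to 0.19 (Pde12) around Kcnma1, from -0.28 (Cyp2d10) to 0.42 (Cyp2d40) around Desi1, and from -0.23 (Rnd2) to 0.49 (Ccr10) around Vat1. Xrcc6 and Snu13, the nearest genes to Desi1, differed by -0.25 ± 0.13 and 0.11 ± 0.12 in NOD Treg. Ifi35 and Rnd2, the nearest to Vat1, differed by 0.23 ± 0.15 and -0.23 ± 0.16 there, and Zfp503 and Dlg5, the nearest to Kcnma1, by -0.05 ± 0.21 and -0.02 ± 0.15. The stretch of chromosome 8 where probe set 10582545 falls by number was added after the data were seen. None of its 30 tested genes was called either, with 1 in Treg and 1 in Tconv at an unadjusted p under 0.05, and its differences in Treg ran from -0.27 to 0.20.

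**Figure D3:**
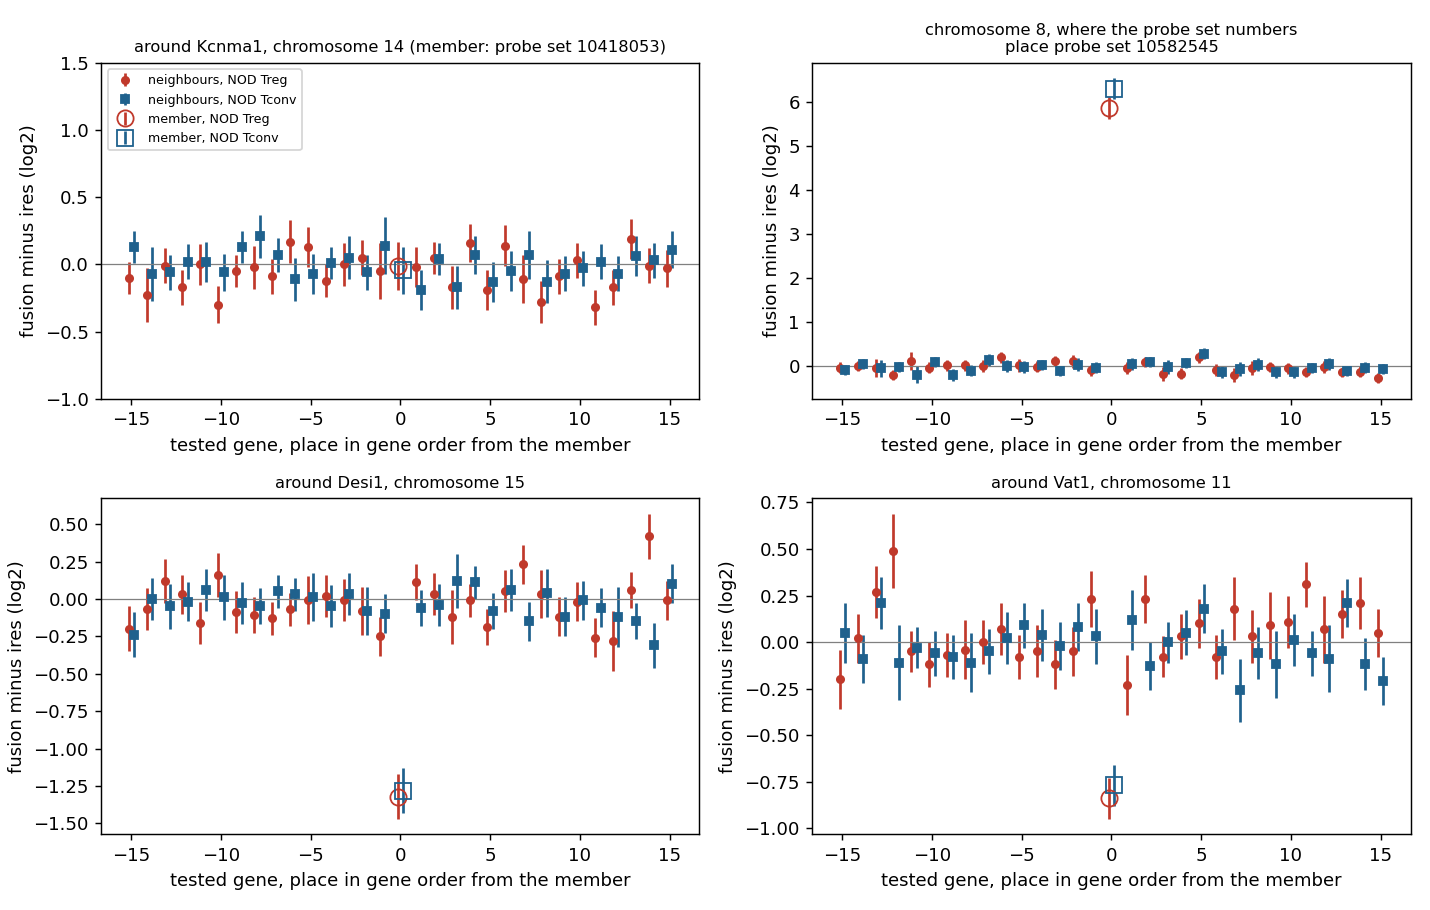
Fusion minus ires difference (log2) in NOD Treg and NOD Tconv of the 15 tested genes on each side of Kcnma1, Desi1, Vat1 and the chromosome 8 place of probe set 10582545, in gene order, with whiskers for the SE and open symbols for the member. In NOD Treg, probe set 10582545 lies at 5.86 above the chromosome 8 genes, Desi1 at -1.32 and Vat1 at -0.84, while Kcnma1 probe set 10418053 lies at -0.01 among its neighbours on chromosome 14, and all neighbours stay between -0.32 and 0.49.

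Besides the members, few genes were called between the NOD lines in both cell types. With 2 arrays a group, a gene that was not called may still differ. In NOD Treg 13 genes were called and in NOD Tconv 6. The 2 comparisons share 1 estimate of each gene's spread, so calls in both are not independent. Called in the same direction in both were 6 genes, 46.2% of the Treg calls and 100% of the Tconv calls. The members, whose place among them and in these shares follows from their choice, are 3 of the 6. The other 3 were Tap1, H2-M3 and H2-Q5, genes of peptide transport and MHC class I on chromosome 17, all higher in NOD fusion than in NOD ires. The mean of Tap1 was 10.49 in NOD fusion, 9.63 in NOD ires and 10.52 in B6. That of H2-M3 was 8.57, 7.70 and 8.29, so for both genes the B6 lines lay nearer to NOD fusion than to NOD ires. The B6 level of H2-Q5 is not given here. Tap1 differed by 0.88 ± 0.13 in Treg (adjusted p = 0.0048, limma) and by 0.83 ± 0.13 in Tconv (adjusted p = 0.0168), H2-M3 by 0.97 ± 0.13 and 0.75 ± 0.13 (adjusted p = 0.00209 and 0.0489), and H2-Q5 by 1.67 in each cell type (adjusted p = 0.0265 and 0.0495). With only the compared groups in the fit, 2 genes were called in NOD Treg and 1 in NOD Tconv.

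**Figure D4:**
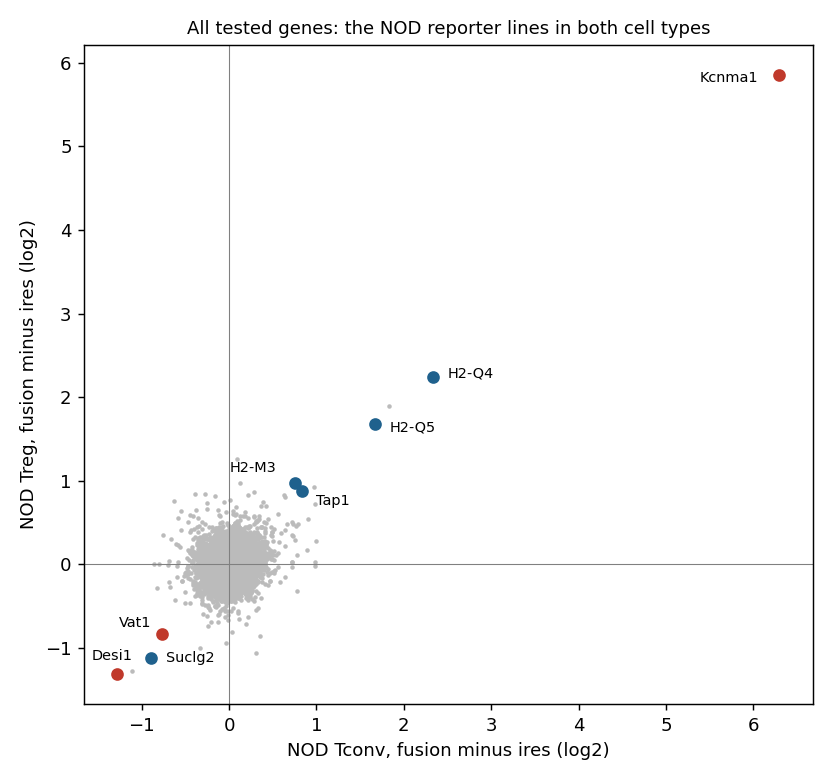
Fusion minus ires difference (log2) of the 12798 tested genes in NOD Tconv (horizontal) and NOD Treg (vertical). Red points are the members, blue points Tap1, H2-M3, H2-Q5, H2-Q4 and Suclg2, and grey points all other genes. The point for Kcnma1, which is its probe set 10582545, lies far from all others at 6.30 and 5.86. Desi1 and Vat1 lie at the low end of both axes, and Tap1, H2-M3, H2-Q5 and H2-Q4 lie high on both.

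In a ranking of the tested genes without provisional symbols and antigen receptor segments, Suclg2 followed Desi1 most closely (r = 0.976 over 16 arrays). Suclg2 encodes a subunit of a mitochondrial succinyl-CoA ligase. Its values in the gene-level fit come from probe set 10607497, the brighter of 2, which had 7.60 and 7.76 in NOD fusion Treg and 9.04 and 8.58 in NOD ires Treg, and 7.93 and 7.70 in NOD fusion Tconv against 8.97 and 8.45 in NOD ires Tconv. It was named for its likeness to Desi1 on these same arrays, so a low NOD fusion signal follows from that choice. Its fusion minus ires difference is therefore given with no test, at -1.13 ± 0.17 in NOD Treg and -0.89 ± 0.17 in NOD Tconv. These results and the r rest on a probe set that had 0 of its 10 nearest numbers on chromosome 6, where the gene lies, and 10 on chromosome X. What it measures was not tested. The other probe set, 10546538, had 10 of 10 on chromosome 6. It lay at 7.13 to 7.48 in the NOD fusion line and at 7.94 to 8.58 in NOD ires, with differences of -1.13 ± 0.18 in Treg and -0.86 ± 0.18 in Tconv. Ndufv3, a subunit of mitochondrial complex I (r = 0.885), Vps18 (0.847) and Tmub1 (0.819) came next in that ranking.

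The genes most like Kcnma1 (10582545) followed it less closely, with r = 0.806 for Zbtb21, 0.805 for Txndc9, 0.768 for Selenon and 0.766 for Angptl1. Zbtb21 lay at 8.27 to 8.40 on the NOD fusion arrays and at 7.73 to 8.13 on the others, far smaller a step than that of the probe set. For Vat1 the most like were Gsk3a (0.834), Ccdc167 (0.833), Slc39a8 (0.823) and Arid1b (0.807). The most opposite genes, looked up after the data were seen, were on chromosome 17 for Vat1: H2-M3 (-0.93), Psmb9 (-0.858), H2-Q4 (-0.848) and Tap1 (-0.84). H2-M3 was at 8.44 to 8.71 in the NOD fusion line and at 7.60 to 7.86 in NOD ires. All these rankings left out provisional symbols and antigen receptor segments, and the coefficients share the same 16 arrays and their clusters by line.

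Among other genes of the members' pathways, 1 was called between the NOD lines, a relative of Vat1. Of 31 BK channel partners and T cell ion channel genes, 22 were tested and none was called in NOD Treg or NOD Tconv by limma. Over all genes 0.102% and 0.0469% were called, so no call is near the share over all genes. None passed at an unadjusted p under 0.05 either, beside 4.81% and 3.07% of all genes. Their differences had a median of -0.03 in Treg and -0.01 in Tconv, beside -0.013 and -0.0013 over all genes. Kcna3 differed by 0.20 ± 0.13 and Kcnn4 by -0.10 ± 0.12 in NOD Treg. The regulatory subunit genes Kcnmb1 and Kcnmb2 were too low to test. In B6, where fusion against ires called 0.344% of all genes in Treg and 0.0313% in Tconv, none of the 22 was called either, with 1 in Treg and 0 in Tconv at an unadjusted p under 0.05.

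Between the cell types, 7 of these 22 channel genes rose and 5 fell in Treg against Tconv over the 4 lines, 54.5% of the list beside 28.6% of all genes, a difference that was not tested. Kcna3 was higher in Treg by 0.86 ± 0.07 (adjusted p = 5.17e-09, limma), the background potassium channel gene Kcnk6 by 0.94 ± 0.11 (adjusted p = 1.42e-06) and the calcium sensor Stim2 by 0.64 ± 0.06 (adjusted p = 2.24e-07). Atp2b1 was higher by 0.64 ± 0.07 (adjusted p = 1.08e-06), whereas Stim1 was lower in Treg, at -0.30 ± 0.07 (adjusted p = 0.0014, limma). Orai2, a calcium channel subunit, was lower in Treg, at -0.74 ± 0.08 (adjusted p = 3.72e-07), and Kcnmb4, a regulatory subunit of the BK channel, was at -0.59 ± 0.07 (adjusted p = 1.16e-06). Kcnn4 did not pass, with -0.07 ± 0.06 (adjusted p = 0.411).

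Of 25 genes of SUMO conjugation and removal, 19 were tested and none was called in either NOD comparison, beside 0.102% (Treg) and 0.0469% (Tconv) of all genes. None passed at an unadjusted p under 0.05 either, beside 4.81% and 3.07% of all genes. Desi2, the close relative of Desi1, differed by -0.24 ± 0.17 in NOD Treg and -0.28 ± 0.17 in NOD Tconv, and by 0.46 ± 0.17 in B6 Treg, where its adjusted p was 0.446 (limma). Between the cell types 2 of the 19 rose and 4 fell, 31.6% of the list beside 28.6% of all genes, with Pias3, a SUMO ligase, higher in Treg by 0.45 ± 0.07 (adjusted p = 2.7e-05) and the SUMO protease Senp2 at -0.29 ± 0.07 (adjusted p = 0.00409, limma). Of 15 zinc-binding or quinone reductases listed beside Vat1, not all of its own family, 9 were tested. Adh1, an alcohol dehydrogenase, was lower in NOD fusion Treg than in NOD ires Treg by limma (-0.95 ± 0.14, adjusted p = 0.00448), with -0.04 in NOD Tconv. In B6 it differed in the same direction without being called, by -0.50 ± 0.14 in Treg (adjusted p = 0.2, limma) and -0.19 ± 0.14 in Tconv. The 1 call is 11.1% of the tested list in NOD Treg beside 0.102% of all genes, with 3 at an unadjusted p under 0.05, which 4.81% of all genes passed. In NOD Tconv 0 were called at either threshold, beside 0.0469% and 3.07% of all genes. Between the cell types 1 of the 9 rose and 4 fell, 55.6% of the list beside 28.6% of all genes, with Adh1 at -1.99 ± 0.07 (adjusted p = 7.33e-14, limma) and Zadh2 at -0.68 ± 0.06 (adjusted p = 9.79e-08).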

How the data were processed

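RNA from sorted T cells was hybridized to 16 Affymetrix arrays in 8 groups of 2. The authors used Affymetrix Power Tools and RMA, per the submitters' processing notes, and deposited linear intensities. Versions and build: not given in the sources used here. All deposited intensities were turned into log2 values with no pseudocount. Of 25108 probe sets, 21157 carried 1 symbol, 1341 several and 2610 none. A gene took the values of its probe set of highest mean, and genes above log2 6.06, the 40th percentile, on 2 or more arrays entered the tests (12798 genes). For Kcnma1 that was probe set 10582545, with a mean of 5.82 over the 16 arrays against 4.66 for 10418053. This choice rested on the NOD fusion arrays. Over the 12 other arrays probe set 10582545 was the dimmer, at 4.34 against 4.68.

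Group means were fitted jointly over the 16 arrays, using limma 3.58.1 and R 4.3.3 (8 residual and 9.80 prior degrees of freedom), with two-sided tests adjusted by the Benjamini-Hochberg method. The fit was tested on simulated data. Tables and plots used Python 3.11.15, numpy 2.4.6, pandas 2.3.3 and matplotlib 3.10.9. A RefSeq table of GRCm38.p6 gave chromosomes, gene order and promoters.

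The members, pathway lists and named-gene rule were chosen with earlier results of these data known. Named genes were the members, sort markers, the 4 most like genes of each member, the nearest genes and any called, up to 4 called genes per list, always Desi2, Kcnn4 and Kcna3 (another gene of the rule is not reported here), and up to 8 genes called in both NOD cell types; neighbours at the ends of a range, and Suclg2's second probe set, were chosen after their values were seen. The channel genes Kcnmb4, Kcnk6 and Stim1 were named beyond the limit of 4 per list. Provisional symbols (Gm, Rik, LOC, Mir and Snor) and antigen receptor segments were only counted. Alternatives were other filters, centring, quantile normalization, variances with trend, weights per array, the mean of probe sets, only the compared groups, replicate blocks and leaving out each array; every probe set on its own and Kcnma1's other probe set were added after seeing the data.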

Additional observations from a re-analysis of the deposited data

Results flagged for a closer look

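Probe set 10582549, which the annotation ties to no gene and which the gene-level comparisons did not use, differed between the NOD lines. Its fusion minus ires difference was 3.03 ± 0.26 (SE) in NOD Treg and 3.98 ± 0.26 in NOD Tconv, given with no test. It lay at 8.04 to 9.70 on the 4 NOD fusion arrays and at 4.95 to 5.53 on the other 12, so the groups did not overlap. Its number follows that of the high Kcnma1 probe set 10582545. What transcript it measures was not tested.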

How the results depend on the processing

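Under 27 other settings, 12 values of the members' differences moved by more than the spread between arrays. Fusion minus ires of Kcnma1 was 2.92 in NOD Treg and 3.13 in NOD Tconv as the mean of its probe sets, and -0.013 and -0.045 by its other probe set. Leaving out 1 array at a time gave 5.41 to 6.31 (NOD Treg) and 5.96 to 6.64 (NOD Tconv) for Kcnma1 probe set 10582545. In NOD Treg it gave -1.55 to -1.09 for Desi1 and -0.94 to -0.73 for Vat1. Called genes were 2 (NOD Treg), 1 (NOD Tconv), 168 (B6 Treg) and 2 (B6 Tconv) with only the compared groups in the fit, 20 in B6 Treg with array weights, and 22 (NOD Treg) and 29 (B6 Treg) with every probe set on its own, against 13, 6, 44 and 4 with the chosen settings. Leaving out 1 array gave 3 to 15 calls in NOD Treg, 2 to 14 in NOD Tconv, 11 to 49 in B6 Treg and 2 to 5 in B6 Tconv; 3 came without array 1 of NOD ires Treg, and 2 and 14 without array 1 and array 2 of NOD ires Tconv. Treg minus Tconv calls were 2138 higher and 1526 lower, 1717 and 1714 with centring, and 2108 and 2197 with quantile normalization. Desi1 and Vat1 stayed uncalled in Treg minus Tconv under every alternative run, with adjusted p from 0.356 to 0.981 for Desi1 and 0.635 to 0.968 for Vat1 (limma). Array numbers were not taken as pairs: deviations of same-numbered arrays correlated at -0.371 to 0.465 over 28 pairs of groups, 16 of them over 0.1, and between Treg and Tconv at 0.239 (NOD fusion), 0.0803 (NOD ires), 0.398 (B6 fusion) and 0.396 (B6 ires), not all over 0.1. The replicate block was 1 term for array number shared by all groups, and pairing of Treg with Tconv within each line was not fitted. With the block, 3981 genes were called in Treg minus Tconv against 3664 without it, and Desi1 and Vat1 stayed uncalled. With 2 arrays a group and probe set 10582545 of Kcnma1 under the testing limit on 12 arrays, its fold is a bound.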
